A study of Pimephales promelas with 16 samples.

Results

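Transcript levels in ovary explants incubated with LIN were compared with those in explants incubated with DHT, 2 of the 4 groups of a microarray series on the fathead minnow (Pimephales promelas). The comparison used the 4 arrays labelled with the agent LIN (titles LIN3, LIN4, LIN5 and LIN6) and the 4 labelled with the agent DHT (titles DHT1, DHT4, DHT5 and DHT6), 8 of the 16 arrays of the series. An explant is a piece of tissue kept alive in culture, here of ovary from female fish, and both groups were incubated for 12 h with their chemical at 1e-06 M. Total RNA was extracted with TRIzol, and extracts with lower RNA integrity were cleaned on a column before labelling with the dye Cy3, one sample to an array. Which extracts were cleaned, the age of the fish, and whether the 4 replicates of a group came from separate fish are not given in the sources used here, and for that reason a p-value here tells only of the spread among these arrays, which may in part be technical. The other 2 groups, flutamide at 1e-06 M and control, had the same incubation and 4 arrays each. They entered the fit and are quoted beside the results, and the labels do not say whether the control received a carrier.

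DHT is the usual abbreviation of dihydrotestosterone, a potent androgen that binds the androgen receptor and that aromatase does not convert to an estrogen. The androgen receptor is a transcription factor that moves to the nucleus when a ligand binds and there raises or lowers the transcription of its target genes. In the fish ovary, androgens come from the theca cells around the follicle, and in females they also serve as substrate for estrogen synthesis in the granulosa cells. LIN was taken to stand for linuron, which the series title names; it is a herbicide of the urea class, known as a weak antagonist of the androgen receptor, and flutamide is a drug that blocks this receptor. The LIN explants are not labelled as having received DHT as well, so the comparison sets an agonist alone against an antagonist alone and not the blocking of an added agonist.

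The arrays name each probe by an identifier and a contig or sequence name, and do not pair it with a gene. None of the 14499 sequence names matched the RefSeq gene table, so no probe below is given a gene name or a role. Markers of oocytes, granulosa, theca, blood or testis, and lists of steroid synthesis and receptor genes, could for that reason not be measured, and the label ovary could not be checked against its markers. Since explants hold several cell types, fewer cells of one type and less RNA per cell cannot be told apart in any value given here.

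Signal and detection differed between the groups by less than the spread of their arrays. The 75th percentile of the probe signal ran from 921.5 to 2918.2 on the DHT arrays and from 1513.2 to 3066.4 on the LIN arrays, and 81.2% to 87.0% and 82.9% to 87.8% of the 15208 probes were well above background. Neither difference passed its test (2210 ± 723 against 1970 ± 1050, exact two-sided permutation p = 0.629; 86.2% ± 2.23 against 84.1% ± 2.47, exact permutation p = 0.286; SD, n = 4 each, smallest possible p = 0.0286). Slides 1 and 3 each held 2 LIN and 2 DHT arrays, and the scan day followed the slide. Position on the slide was not shared out in this way: LIN arrays lay at positions 4, 2, 4 and 4 and DHT arrays at positions 2, 1, 2 and 2 (in title order), so LIN4 was the sole LIN array at a position that also held DHT. For the rest of the LIN arrays, position and chemical cannot be told apart.

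Levels below are log2 of an array's processed signal minus the log2 of that array's 75th percentile, so that 0 is the 75th percentile of the array and a difference of 1 is a factor of 2. They compare 1 probe between arrays and not 2 probes with each other. With 4 LIN against 4 DHT arrays, limma called none of the 13146 kept probes at a Benjamini-Hochberg adjusted p below 0.05 (0%), with 0.145 the lowest adjusted p. At an unadjusted p below 0.05 the same fit held 906 probes (6.89%), of which 791 were lower and 115 higher with LIN. Without LIN4 the number at that p was 1708, and without LIN6 it was 443. The values of the 4 LIN arrays all lay below those of the 4 DHT arrays at 424 of 13117 probes with no missing value (3.23%) and all above them at 65 (0.496%). The median difference over all kept probes was -0.06, and the median 95% confidence interval reached 0.66 to either side.

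The files' title numbers 4, 5 and 6 occur in both groups, and arrays that share a number resembled each other: their deviations from the group means correlated at r = 0.65 to 0.77 over probes in the 3 same-number pairs, against -0.36 to 0.37 in the 13 pairs with different numbers. The arrays of each same-number pair also lay on the same slide and in the same row of arrays on it. Number and slide row can therefore not be told apart in these pairs. The r of 0.37 was that of DHT1 and LIN3, which also shared a slide and a row. The numbers were treated as pairing the samples, although no label states what the number stands for, and each result is also given with the number as a block. As a fixed block the number left 0 of 13146 probes called by limma (0%; lowest adjusted p = 0.184), with 1362 at an unadjusted p below 0.05 (10.4%), 1026 of them lower with LIN. As a random block, with an estimated correlation of 0.631, it called 46 probes (0.350%), 45 lower (0.342%) and 1 higher (0.00761%), and 1676 probes lay at an unadjusted p below 0.05 (12.7%), of which 1367 were lower.

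The probe of the lowest p on the lower side was UF_Ppr_AF_103365 (sequence FJU.12821.C1). Its level was -0.85 on DHT1, -0.41 on DHT4, -0.36 on DHT5 and -0.35 on DHT6, against -1.65 on LIN3, -1.53 on LIN4, -1.74 on LIN5 and -2.59 on LIN6. All LIN arrays were below all DHT arrays, with LIN6 the lowest and DHT1 the lowest of its own group. The means were -1.88 ± 0.48 with LIN and -0.49 ± 0.24 with DHT (SD, n = 4), a difference of -1.39 ± 0.22 (SE; 95% interval -1.86 to -0.92), or 2.62-fold lower. It did not pass the adjustment without a block (limma adjusted p = 0.145) or with the fixed block (-1.47 ± 0.23, adjusted p = 0.202), and passed it with the random block (-1.45 ± 0.19, adjusted p = 0.0127). Under the random block the call was lost without DHT5 (adjusted p = 0.0959), without DHT6 (0.109) and with spike-in centring (-1.17, 0.993). With position as a further block, where LIN4 is the sole LIN array set against DHT, the difference was -1.03. A value from this array alone does not show whether the call holds. The difference was -0.96 between the arrays of slide 1, -1.81 on slide 3 and -1.01 at the shared position 2. In the other groups the level was -0.43 ± 0.14 in controls and -1.34 ± 0.20 with flutamide (SD, n = 4).

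The second probe on the lower side, UF_Ppr_AF_117171 (sequence gi_72763384), had levels of -2.38 on DHT1, -2.77 on DHT4, -2.62 on DHT5 and -2.79 on DHT6, and of -3.53 on LIN3, -3.67 on LIN4, -3.39 on LIN5 and -4.02 on LIN6. The groups were separated by more than the range of the DHT arrays. LIN averaged -3.65 ± 0.27 and DHT -2.64 ± 0.19 (SD, n = 4), a difference of -1.01 ± 0.16 (SE; 95% interval -1.36 to -0.66), or 2.02-fold lower. The adjusted p from limma was 0.145 without a block, 0.184 with the fixed block (-1.02 ± 0.14) and 0.00966 with the random block (-1.02 ± 0.12). The random-block call was lost without DHT5 (adjusted p = 0.0887), without DHT6 (0.0885), with normexp background correction (-0.69, 0.170) and with spike-in centring (-0.76, 0.993). With position as a further block, where LIN4 is the sole LIN array set against DHT, the difference was -1.14. A value from this array alone does not show whether the call holds. Without a block the difference was -0.59 with the spike-in spots each set relative to its own mean. This difference hardly moved with the place of the array: it was -1.02 on slide 1 and -1.07 at position 2, and within slide 3 it differed from the slide 1 value by less than the SE. Controls averaged -3.02 ± 0.07 and flutamide arrays -3.32 ± 0.19 (SD, n = 4), both between DHT and LIN. A companion probe of the same sequence name was too dim to be kept.

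On the higher side, UF_Ppr_AF_103609 (sequence FJU.12675.C2) had levels of -5.70 on DHT1, -5.23 on DHT4, -5.22 on DHT5 and -5.10 on DHT6, against -3.67 on LIN3, -4.89 on LIN4, -4.43 on LIN5 and -3.81 on LIN6. The LIN arrays were all above the DHT arrays but spread more widely, and LIN4 came closest to them. The means were -4.20 ± 0.57 with LIN and -5.31 ± 0.27 with DHT (SD, n = 4), a difference of 1.11 ± 0.25 (SE; 95% interval 0.57 to 1.65), or 2.16-fold higher. It did not pass the adjustment in the limma fit without a block (adjusted p = 0.241) or with the random block (0.99 ± 0.21, adjusted p = 0.0656), and with normexp background correction it was 0.46. The difference was 1.18 on slide 1, 1.04 on slide 3 and 0.45 at position 2, where LIN4 is the LIN array. Controls averaged -5.48 ± 0.28 and flutamide arrays -4.47 ± 0.19 (SD, n = 4).

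The last probe chosen over all 8 arrays, UF_Ppr_AF_117784 (sequence gi_72424021), was dim, well above background on 4 LIN arrays and on 3 of the 4 DHT arrays. Its level was -7.63 on DHT1, -6.72 on DHT4, -5.95 on DHT5 and -6.01 on DHT6, against -4.81 on LIN3, -5.40 on LIN4, -5.74 on LIN5 and -5.07 on LIN6. The groups did not overlap, but DHT5 and LIN5 were close. LIN averaged -5.25 ± 0.40 and DHT -6.58 ± 0.78 (SD, n = 4), a difference of 1.32 ± 0.33 (SE; 95% interval 0.62 to 2.03), with limma adjusted p values of 0.300 without a block and 0.0665 with the random block (1.17 ± 0.26). DHT1 was not well above background, so the difference is not given as a fold, and with normexp background correction it was 0.17. The difference was 2.07 on slide 1 and 0.57 on slide 3. Controls averaged -5.96 ± 0.29 and flutamide arrays -5.09 ± 0.25 (SD, n = 4).

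**Figure D1:**
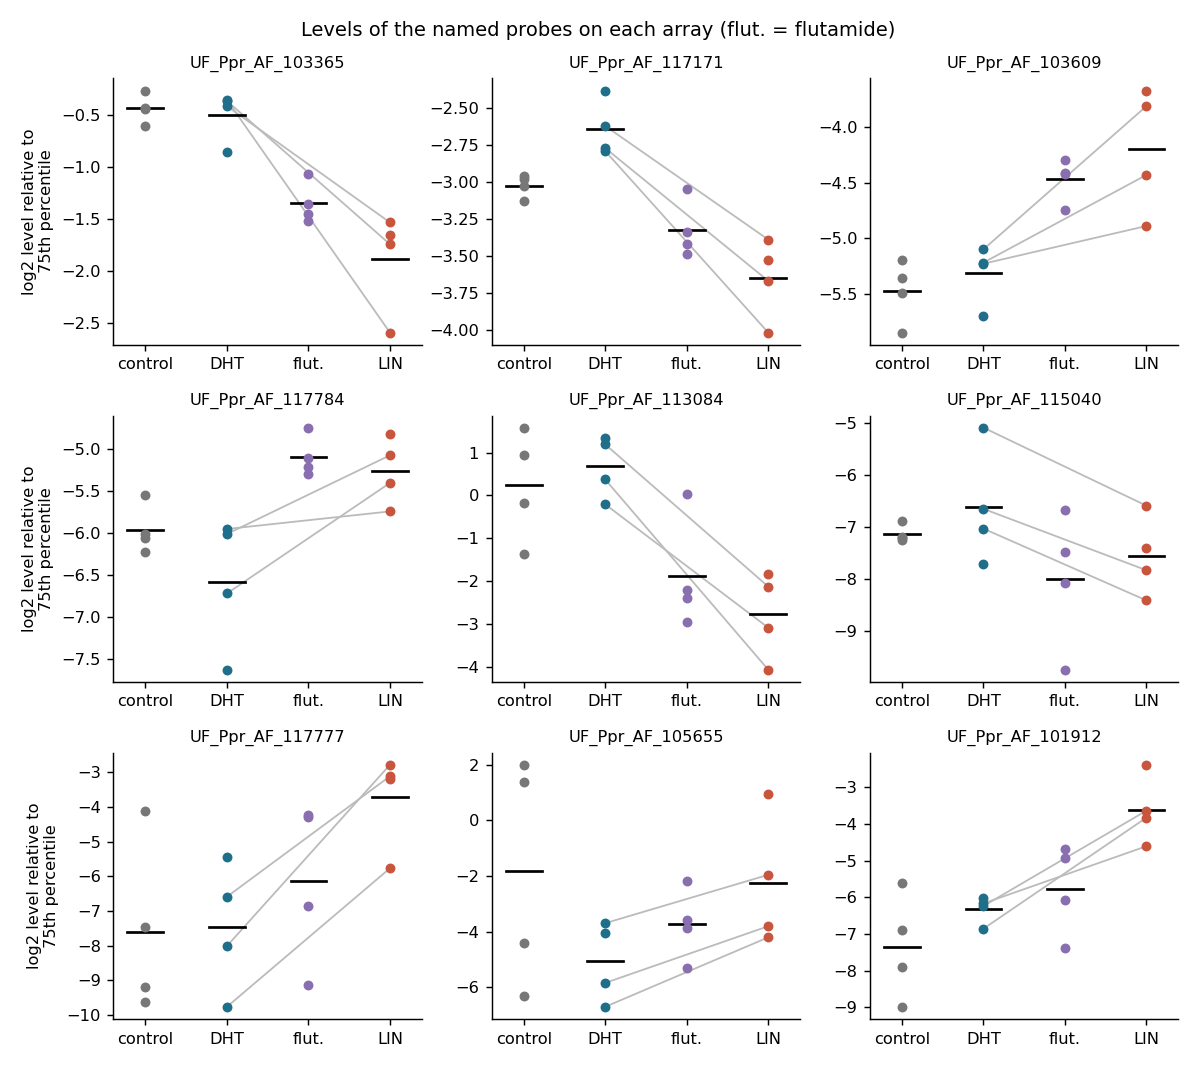
Levels of the 9 probes described in the text, on the log2 scale relative to each array's 75th percentile (vertical axes, one scale per panel), for the control, DHT, flutamide (flut.) and LIN groups. Points are single arrays, black bars are group means (n = 4), and grey lines join the DHT and LIN arrays with the same title number. For UF_Ppr_AF_117171 the 4 LIN arrays lie between -4.02 and -3.39, all below the DHT arrays, while for UF_Ppr_AF_105655 the groups overlap although every line slopes upward.

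Within the numbers 4, 5 and 6 (6 arrays, the number as a fixed block), limma again called 0 of 13146 probes (0%; lowest adjusted p = 0.336), and 1584 lay at an unadjusted p below 0.05 (12.0%), 1404 of them lower with LIN and 180 higher. That number was 3416 without the pair of number 4, 844 without number 5 and 604 without number 6. With spike-in centring the split turned round, with 436 of 631 probes higher with LIN and 195 lower. LIN was below DHT in each of the 3 numbers at 2790 of 13134 probes (21.2%) and above it in each at 1302 (9.91%). A difference of more than 2-fold in each number was rarer, with 24 probes lower (0.183%) and 13 higher (0.0990%). The LIN3 and DHT1 arrays, which have no partner, did not enter these differences. At 15 of the 24 lower probes and 7 of the 13 higher ones their values too left the LIN and DHT groups without overlap. Over all probes with no missing value these shares were 3.23% and 0.496%. The 24 and 13 probes were chosen on the other 6 arrays, so a high share without overlap is in part built in. Of the 13 higher probes 12 were well above background on all 4 LIN arrays and 4 on all 4 DHT arrays, and of the 24 lower probes 18 were so on all DHT and 16 on all LIN arrays.

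The largest difference among the lower probes named from this comparison was at UF_Ppr_AF_113084 (sequence FJU.11271.C2). Its level was 1.35 on DHT1, 1.19 on DHT4, -0.21 on DHT5 and 0.37 on DHT6, and -1.83 on LIN3, -2.13 on LIN4, -3.09 on LIN5 and -4.07 on LIN6. LIN minus DHT was -3.32 in number 4, -2.88 in number 5 and -4.44 in number 6, and LIN3 too lay below every DHT array. The within-number difference was -3.55 ± 0.33 (SE; 95% interval -4.42 to -2.67; 3 pairs), or 11.7-fold lower, with a limma adjusted p of 0.336. Over all 16 arrays it was -3.45 ± 0.73 without a block (adjusted p = 0.230) and -3.14 ± 0.51 with the random block, where it was called (adjusted p = 0.0200). That call was lost without DHT4, DHT5, DHT6, LIN5 or LIN6 (adjusted p from 0.0605 to 0.161) and with spike-in centring (-3.02, 0.586). With position as a further block, where LIN4 is the sole LIN array set against DHT, the difference was -3.34. A value from this array alone does not show whether the call holds. LIN averaged -2.78 ± 1.01 and DHT 0.68 ± 0.73, beside 0.24 ± 1.30 in controls and -1.88 ± 1.31 with flutamide (SD, n = 4). Each of these groups, LIN and DHT included, varied by more than 2-fold among its own arrays. The difference was -3.25 on slide 1, -3.66 on slide 3 and -2.63 at position 2.

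The other lower probe, UF_Ppr_AF_115040 (sequence FJU.2182.C2), was near background, well above it on 2 LIN and 3 DHT arrays. Its level was -7.71 on DHT1, -5.09 on DHT4, -7.03 on DHT5 and -6.65 on DHT6, against -7.40 on LIN3, -6.59 on LIN4, -8.41 on LIN5 and -7.83 on LIN6. LIN was lower within each number, by -1.35 ± 0.15 (SE; 3 pairs; limma adjusted p = 0.336), but DHT1 and LIN3 lay inside the range of the opposite group. Over all arrays the difference was -0.94 with the groups overlapping, and at position 2 it turned to 0.54. With normexp background correction the within-number difference was -0.39.

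UF_Ppr_AF_117777 (sequence FJU.1895.C3) had the largest within-number difference of the higher probes named. Its level was -5.45 on DHT1, -6.59 on DHT4, -9.76 on DHT5 and -8.01 on DHT6, against -3.21 on LIN3, -3.12 on LIN4, -5.77 on LIN5 and -2.79 on LIN6. It was well above background on all 4 LIN arrays and on 2 DHT arrays, and LIN5 lay below DHT1, so the groups overlapped. LIN minus DHT was 3.47, 3.99 and 5.23 in the numbers 4, 5 and 6, on average 4.23 ± 0.37 (SE; 95% interval 3.26 to 5.20), with a limma adjusted p of 0.336. DHT5 and DHT6, the partners in the numbers 5 and 6, were not well above background, so no fold is given, and with normexp background correction the difference was 1.5. Over all arrays without a block it was 3.73 ± 1.35 (adjusted p = 0.534). Controls averaged -7.60 ± 2.50 and flutamide arrays -6.13 ± 2.34 (SD, n = 4), each with a spread over arrays as wide as that of the DHT group or wider.

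UF_Ppr_AF_105655 (sequence FJU.139.C2) showed a steady pair difference on a level that varied widely. It was -4.04 on DHT1, -6.71 on DHT4, -3.70 on DHT5 and -5.85 on DHT6, and 0.94 on LIN3, -4.21 on LIN4, -1.96 on LIN5 and -3.81 on LIN6. LIN minus DHT was 2.51, 1.74 and 2.04 in the 3 numbers, on average 2.10 ± 0.20 (SE; 95% interval 1.57 to 2.62), or 4.27-fold higher, with a limma adjusted p of 0.336, and with normexp background correction it was 1.15. The means of all 4 arrays were -2.26 ± 2.35 with LIN and -5.08 ± 1.44 with DHT, beside -1.83 ± 4.15 in controls and -3.73 ± 1.28 with flutamide (SD, n = 4). The difference was 3.74 on slide 1, 1.89 on slide 3 and 0.32 at position 2.

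The 3 pairs did not show one common profile over all probes. LIN minus DHT had a median of 0.02 and an SD of 0.43 over probes in number 4, of -0.13 and 0.51 in number 5 and of -0.09 and 0.72 in number 6, and 47.5%, 63.8% and 59.4% of probes were lower with LIN. Across probes, the differences of numbers 5 and 6 rose together (Pearson r = 0.59, Spearman rho = 0.62, 13144 probes), those of numbers 4 and 6 weakly (r = 0.24, rho = 0.15, 13134 probes), and those of numbers 4 and 5 did not (r = -0.05, rho = -0.18, 13136 probes). These are descriptions across probes, which are not independent replicates. Numbers 5 and 6 lay on slide 3, with both LIN arrays at position 4 and both DHT arrays at position 2, whereas number 4 lay on slide 1 with LIN at position 2 and DHT at position 1. The part of slide, scan day and position in this pattern was not tested.

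**Figure D2:**
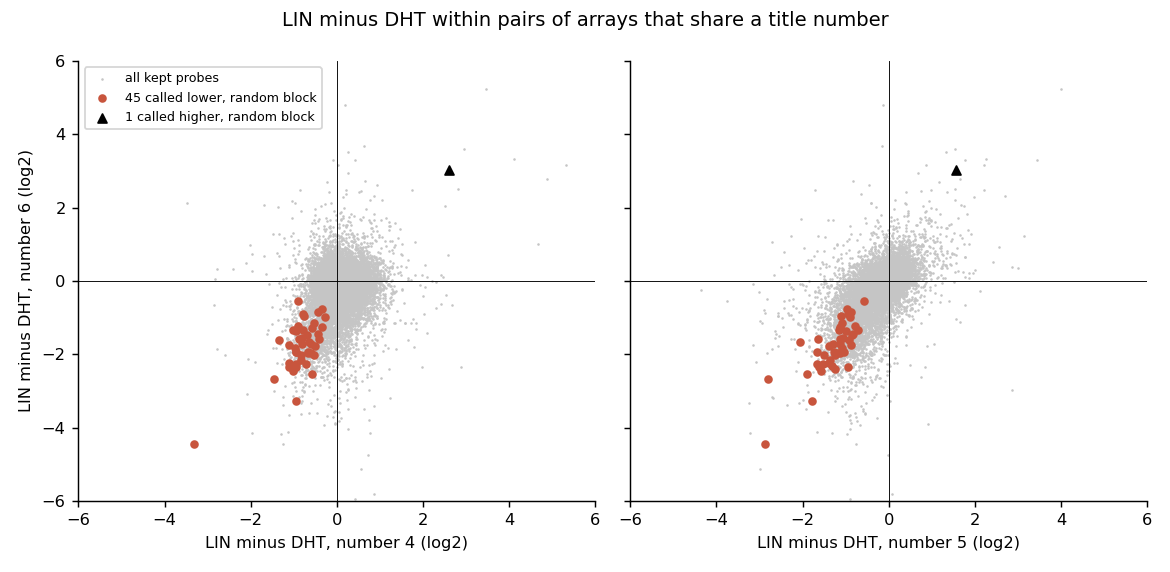
LIN minus DHT (log2) within number 6 (vertical axes) against that within number 4 (left) and number 5 (right). Grey points are all kept probes, red points the 45 probes called lower and the black triangle the 1 probe called higher with the number as a random block, and 3 probes lie beyond the axes. The grey cloud runs along the diagonal on the right (r = 0.59) and less so on the left (r = 0.24), and the red points are below 0 in all 3 numbers.

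The 45 probes called lower with the number as a random block were chosen on these same differences, and their values are given as a description. Their differences ran from -3.14 to -0.63 with a median of -1.18, and 32 were more than 2-fold lower. The 4 LIN arrays lay below the 4 DHT arrays at 41 of the 45, against 3.23% of all probes, and 42 were well above background on all 8 arrays. Their median differences in the numbers 4, 5 and 6 were -0.82, -1.13 and -1.74, and all 45 were lower in each number. Besides UF_Ppr_AF_117171, UF_Ppr_AF_103365 and UF_Ppr_AF_113084, only those of these probes with a kept partner of a similar contig name are named, further below. The files give no gene for any of them.

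Within slide 1 the 45 probes had a median difference of -0.87, within slide 3 of -1.51 and at position 2 (LIN4 against DHT1, DHT5 and DHT6) of -0.75, while the medians of all probes were -0.01, -0.12 and 0.07. All 45 were lower in each of these subsets. The arrays of the subsets are among those that chose the list, so this is a description and not a test. With the slide added as a fixed block beside the random number block, limma called 139 probes. With position added instead, LIN4 is the sole LIN array set against DHT, so the calls of that fit are not given. The number of calls rested on single arrays: it was 0 without DHT5 or without DHT6 (1056 and 1204 at an unadjusted p below 0.05), 3 without LIN5, 6 without DHT4, 12 without LIN6, 27 without FLU3, 30 without DHT1 or without CON4, 79 without CON6, 264 without CON3 and 292 without LIN4. The 3 that were left without LIN5 were UF_Ppr_AF_117171, UF_Ppr_AF_103365 and UF_Ppr_AF_101912.

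The median level of the 45 probes on each array was -2.01 on DHT1, -2.18 on DHT4, -2.17 on DHT5 and -2.02 on DHT6, and -3.08 on LIN3, -2.83 on LIN4, -3.39 on LIN5 and -3.65 on LIN6. On the control arrays it was -1.95 on CON1, -2.60 on CON3, -2.26 on CON4 and -1.93 on CON6, and on the flutamide arrays -2.98 on FLU2, -2.63 on FLU3, -3.22 on FLU5 and -2.61 on FLU6. Every flutamide array thus lay below every DHT and control array on this median, but FLU6 and CON3 were nearly level. The medians of all probes were -2.52 on FLU6 and -2.48 on CON3, further apart than the medians of the 45. Set against all probes, FLU6 therefore did not lie below CON3. The flutamide and LIN arrays overlapped. Group by group, the medians of the 45 probe means were -2.23 for control, -2.04 for DHT, -2.85 for flutamide and -3.20 for LIN. Set against the same DHT arrays, the median difference was -0.16 for control, -0.90 for flutamide and -1.20 for LIN over these 45 probes, and 0.02, -0.05 and -0.06 over all probes. The LIN and DHT differences chose the list, in a fit whose spread and block correlation also drew on the control and flutamide arrays. The levels of those 2 groups are therefore not independent of the choice. The 3 differences share the DHT arrays. Flutamide arrays lay at position 3 and control arrays at position 1 of their slides, so group and position cannot be told apart here either.

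**Figure D3:**
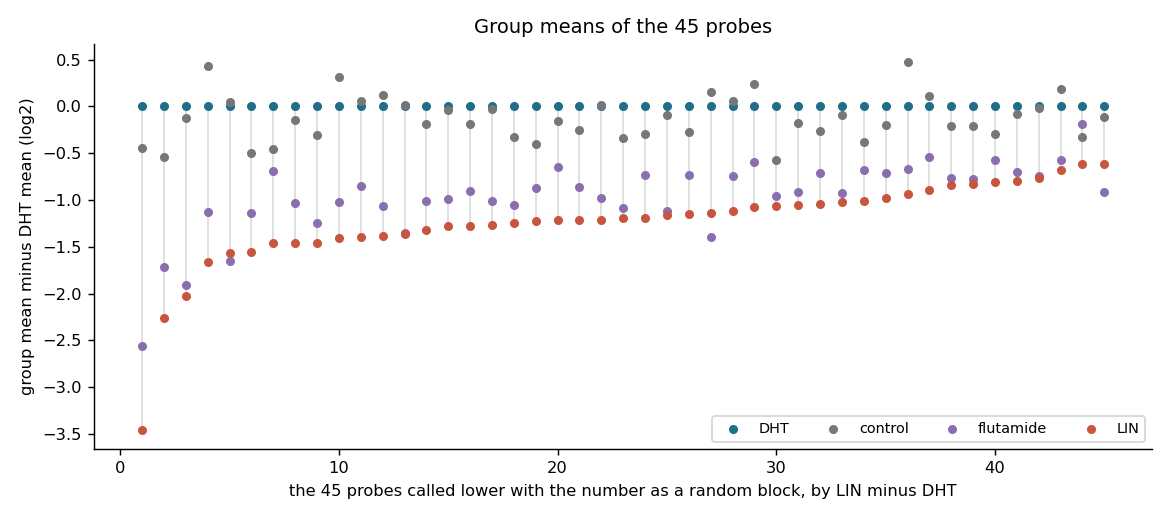
Group means of the 45 probes called lower with LIN with the number as a random block, each drawn as the group mean minus the DHT mean (log2, vertical axis), ordered by LIN minus DHT (horizontal axis). DHT is at 0 by construction, and each mean is of 4 arrays. Flutamide means (median -0.90, against -0.05 over all probes) are below 0 at all 45 probes. Control means (median -0.16, against 0.02 over all probes) lie between the LIN and DHT means at 32 of the 45. The LIN and DHT differences chose the list, in a fit that also used the control and flutamide arrays, and all differences share the DHT arrays.

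The 1 probe called higher with the random block, UF_Ppr_AF_101912 (sequence FJU.9244.C2), lies outside the rule for naming probes and was chosen with its values in view. Its level was -6.01 on DHT1, -6.24 on DHT4, -6.17 on DHT5 and -6.86 on DHT6, against -2.39 on LIN3, -3.64 on LIN4, -4.61 on LIN5 and -3.83 on LIN6. The DHT arrays were close together and the LIN arrays well above them, with LIN5 the lowest of its group. LIN averaged -3.62 ± 0.92 and DHT -6.32 ± 0.37 (SD, n = 4), and the difference in the random-block fit was 2.47 ± 0.45 (SE), or 5.56-fold, with a limma adjusted p of 0.0318. The call was lost without CON1, FLU3, LIN6 or any one of the 4 DHT arrays (adjusted p from 0.0523 to 0.194) and with spike-in centring (2.80, 0.586). With position as a further block, where LIN4 is the sole LIN array set against DHT, the difference was 2.79. A value from this array alone does not show whether the call holds. With normexp background correction and the random block the difference was 1.21, and it stayed called. Without a block it was 2.70 ± 0.70 (95% interval 1.20 to 4.20; adjusted p = 0.338), and the pairs gave 2.60, 1.56 and 3.03. The difference was 3.11 on slide 1, 2.29 on slide 3 and 2.70 at position 2. Controls averaged -7.35 ± 1.44 and flutamide arrays -5.77 ± 1.23 (SD, n = 4), with 2 and 3 arrays well above background.

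The excess of lower over higher probes spanned dim and middle levels of brightness, was smaller at the next level and was absent from the brightest probes. When the kept probes were cut into 5 equal groups by their mean level over all 16 arrays, LIN minus DHT had medians of -0.26, -0.22, -0.08, 0.00 and 0.01 from the dimmest to the brightest. Probes lower with LIN at an unadjusted p below 0.05 numbered 203, 286, 222, 69 and 11 in these groups, and higher ones 35, 28, 24, 17 and 11. A fit limited to probes well above background on all 8 arrays held 834 at that p, of which 749 were lower (89.8%). In the dimmest group, whose median signal was 23.5, the pair medians were 0.09 in number 4, -0.49 in number 5 and -0.51 in number 6, so that the pairs did not share this shift. In the brightest group, with a median signal of 8190, they were -0.03, 0.05 and 0.03.

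A brightness index was taken for each array as the median deviation of the 3 dimmer groups minus that of the 2 brighter ones. It was 0.24 on DHT1, 0.16 on DHT4, 0.09 on DHT5 and -0.10 on DHT6, and 0.11 on LIN3, 0.24 on LIN4, -0.35 on LIN5 and -0.51 on LIN6. LIN5 and LIN6 were the lowest, and LIN4 was level with the highest DHT array. LIN averaged -0.130 ± 0.360 and DHT 0.0986 ± 0.146 (SD, n = 4), a difference of -0.228 that was within the spread of the arrays (exact two-sided permutation p = 0.314). The part of this measure in the 791 lower probes was not tested.

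**Figure D4:**
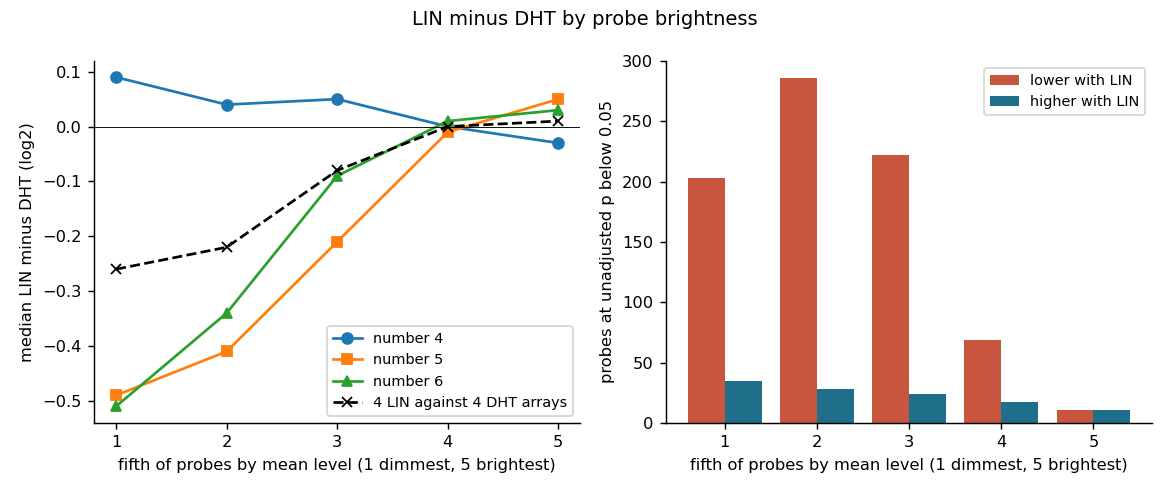
LIN against DHT by probe brightness, in 5 equal groups of kept probes by mean level (horizontal axes, 1 the dimmest). The left panel plots the median LIN minus DHT (log2) within the numbers 4, 5 and 6 and over the 4 LIN against 4 DHT arrays, and the right panel the number of probes at an unadjusted p below 0.05. In the dimmest group numbers 5 and 6 lie at -0.49 and -0.51 and number 4 at 0.09, and the lower counts fall from 286 in the second group to 11 in the brightest.

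The split between lower and higher probes depended on the scaling. Of the 906 probes at an unadjusted p below 0.05, 87.3% were lower with LIN, and this share was 74.3% with each array centred on its median, 73.4% with quantile normalization and 74.1% in the authors' deposited log2 table. Centring on the spike-in spots, which are RNAs of known amount added at labelling, left 157 probes, 54.1% of them lower. With these spots each set relative to its own mean, a setting chosen after seeing the data, there were 524 probes, 26.7% of them lower. The spike-in median relative to the 75th percentile (log2) itself ran from -3.80 on CON3 to -1.40 on FLU6. Normexp background correction left 189, of which 86.8% were lower, close to the share without it. The median of all probes lay at -0.06 with the 75th percentile, 0.09 with the median, 0.00 with quantile normalization, 0.01 in the authors' table, -0.13 with normexp and 0.16 with the spike-in spots. Within slide 1 there were 254 probes, 56.3% of them lower, and within slide 3 there were 1463, 94.2% lower. With position as a fixed block, LIN4 is the sole LIN array set against DHT, so the split of that fit is not given. The directions of UF_Ppr_AF_103365, UF_Ppr_AF_117171, UF_Ppr_AF_103609 and UF_Ppr_AF_117784 were the same under all of these settings.

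**Figure D5:**
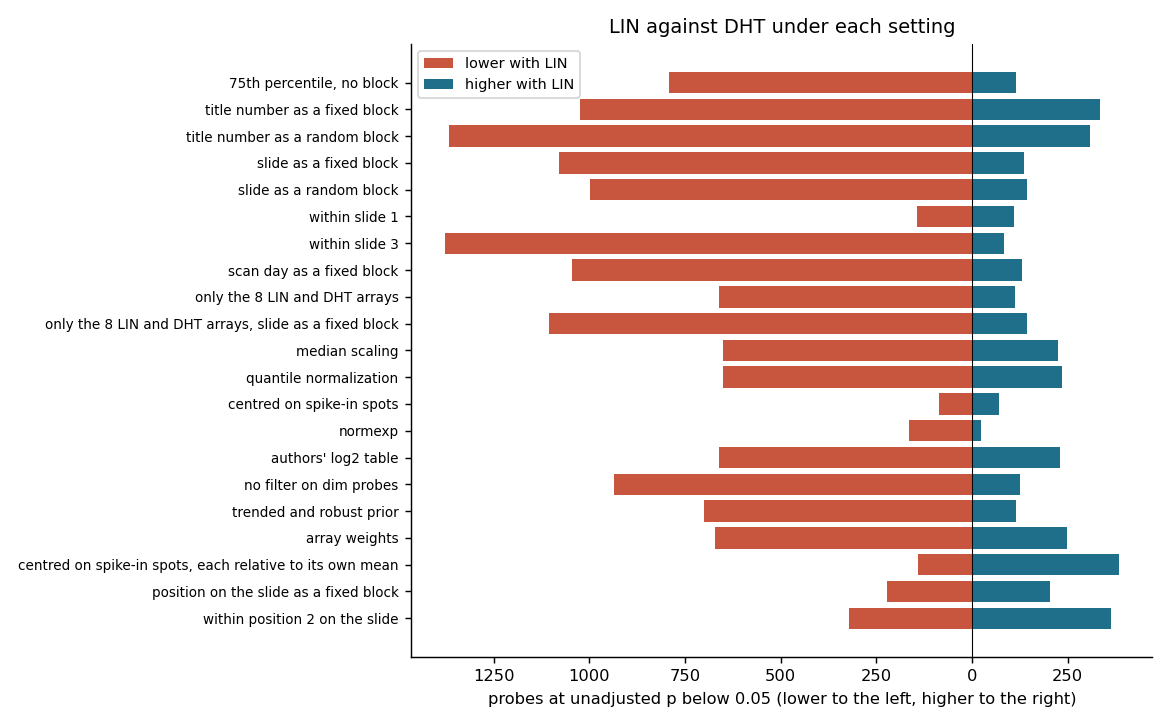
Number of probes at an unadjusted p below 0.05 for LIN against DHT by setting, with probes lower with LIN to the left of 0 and higher ones to the right. Fits that left out 1 array, and the fit limited to probes well above background on all 8 arrays, are not drawn. The first bar is the fit with 75th percentile scaling and no block (791 lower, 115 higher). Within slide 3 the lower side reaches 1378 probes and within slide 1 it reaches 143. With spike-in centring the sides are close to equal. With the spike-in spots each relative to its own mean, 384 probes are higher with LIN and 140 lower. The bars for position as a block and for position 2 alone rest on LIN4 as the sole LIN array set against DHT.

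Detection gave few contrasts between the groups. Of the 15208 probes, 11617 were well above background on all 8 arrays and 1077 on none of them. There were 41 probes well above background on at least 3 LIN arrays and no DHT array. Another 8 were so on at least 3 DHT arrays and no LIN array. These counts stand beside shares of detected probes of 86.2% on the LIN and 84.1% on the DHT arrays. They count a flag on dim probes and not differences in level. Some of the 41 probes had a lower mean level with LIN than with DHT. On all 4 LIN and 0 DHT arrays there were 5 probes, named here after their values were seen. UF_Ppr_AF_107789 was at least 2.55-fold higher with LIN (-5.96 ± 1.56 against a measured -8.08 ± 0.75; limma adjusted p = 0.425), and UF_Ppr_AF_101269 at least 1.72-fold (-6.56 ± 0.86 against -8.15 ± 0.57; adjusted p = 0.608). UF_Ppr_AF_115891 and UF_Ppr_AF_104814 had bounds of at least 1.27-fold and 1.20-fold (adjusted p = 0.683 and 0.425), and UF_Ppr_AF_108363 had none above 1. A bound sets the mean of the brighter group against the dimmest signal that an array could hold well above background, or the probe's own where that is higher. On 0 LIN and all 4 DHT arrays there was 1 probe, UF_Ppr_AF_113955, at least 2.70-fold lower with LIN (-8.06 ± 0.63 against -6.37 ± 0.48; adjusted p = 0.658). None of these differences passed the test. Each bound is taken on group means and leaves out the spread of the arrays. The flags of these same arrays chose the probes, so a difference in that direction is in part built in.

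Some contigs share the first part of their name, which may mark related sequences, although the files do not say so. Among such names, chosen after their values were seen, 5 of the 45 probes had a kept partner. UF_Ppr_AF_101427 (FJU.6392.C3) differed by -1.14 between LIN and DHT. The probes UF_Ppr_AF_100885 (FJU.6392.C5) and UF_Ppr_AF_111116 (FJU.6392.C2) differed by -0.87 and -1.55 without a block (limma adjusted p = 0.370 and 0.371). In the other 4 sets with a kept partner the partner differed by -0.24 to 0.03. UF_Ppr_AF_110397 (FJU_SB_30.426.C2) differed by -1.39 and UF_Ppr_AF_102574 (FJU_SB_30.426.C4) by -0.03, UF_Ppr_AF_103552 (FJU.11830.C2) by -0.83 and UF_Ppr_AF_104711 (FJU.11830.C1) by 0.03. Likewise UF_Ppr_AF_112293 (FJU_SB_30.17.C1) differed by -0.81 and UF_Ppr_AF_102670 (FJU_SB_30.17.C2) by -0.24, and UF_Ppr_AF_109430 (FJU.4267.C2) by -0.62 and UF_Ppr_AF_107018 (FJU.4267.C3) by -0.15. For 709 sequence names the array holds a second probe marked ms, and what ms marks is not stated in the sources used here. Over the 329 names with both probes kept, LIN minus DHT of the 2 probes correlated at r = -0.06 across names, and the median levels were -1.13 without the mark and -5.44 with it, so these pairs were not used as repeats of one measurement.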

How the data were processed

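Per the file headers, the scanner output came from Agilent Feature Extraction 10.7.1.1. Its processed signal, which the authors deposited without scaling between arrays, is an intensity on a linear scale after background subtraction and detrending. A second deposited table holds log2 values, and the sources used here do not state how it was normalized. Each of its columns correlated with its own array's log2 signal at r from 0.99955 to 0.99997 and with other arrays at 0.992 or less, which settles its direction. Column medians of 7.72 to 7.77 show a common level, and the centring method stays unknown. The spot flags (well above background, saturated, outlier) were used as the authors deposited them.

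From these files, the processed signal of each of the 15208 probes was divided by its array's 75th percentile and put on the log2 scale. The 536 control spots and 34 outlier spots of the 8 arrays were left out, and 0 probes were saturated. Keeping probes well above background on 3 or more arrays of any 1 group left 13146. The test of LIN against DHT used limma 3.58.1 under R 4.3.3 (two-sided moderated test, Benjamini-Hochberg adjustment over the kept probes), in one fit of 4 group means over 16 arrays, and within the numbers 4, 5 and 6 on 6 arrays with the number as a fixed block. The number was also fitted as a fixed and a random block over 16 arrays (duplicateCorrelation). The pairing rests on the arrays themselves: all 3 same-number pairs of LIN and DHT arrays had correlated deviations (r = 0.65 to 0.77), and no label states what the number stands for. Each of these pairs also shared a slide and a row of arrays on it.

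As no probe has a gene name, the rule named at most 2 probes in each direction for each of the 2 comparisons: called probes of the largest change, otherwise those of the lowest p, in the first comparison with groups that did not overlap, in the second with 3 differences of one sign. The comparison, the lists and the rule were chosen with earlier results of these data known. The gene lists (steroid synthesis, steroid and gonadotropin receptors, cholesterol and lipid handling, xenobiotic response, growth and ovulation, cell cycle) and cell type markers had 0 names matched and were not tested. Alternatives changed the block, slide, scan day, scaling, background correction, filter, variance prior and array weights, and left out each array in turn. The normexp alternative used the median spot signal, since the mean signal was planned but is not among the columns of these files. The scripts were tested on simulated data. The number of arrays limits the precision.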

Additional observations from a re-analysis of the deposited data

Results flagged for a closer look

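Among the 26 groups of 4 arrays examined for the named probes and the brightness index, 2 held an array whose gap to its nearest neighbour made up most of the group's range, where chance gives about 1 group in 20. For UF_Ppr_AF_103365, DHT1 had a level of -0.85 while the other DHT arrays lay between -0.41 and -0.35 (gap 0.88 of the range). For UF_Ppr_AF_117777, LIN5 had a level of -5.77 while the other LIN arrays lay between -3.21 and -2.79 (gap 0.859 of the range).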

How the results depend on the processing

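The count of 0 calls without a block held in 33 of 37 alternatives, including each of the 16 fits that left out 1 array. It moved to 46 with the replicate block as a random effect, to 6 with quantile normalization (all lower), to 1 with slide as a block in the 8 arrays alone (UF_Ppr_AF_113084) and to 1 with array weights (UF_Ppr_AF_103365). The 906 probes at an unadjusted p below 0.05 became 1362 with the replicate block fixed, 1676 with it random, 254 within slide 1, 1463 within slide 3, 157 with spike-in centring and 189 with normexp, and ranged from 443 to 1708 when 1 array was left out. Settings chosen after seeing the data gave 426 with position as a block and 524 with spike-in spots each relative to its own mean, where 26.7% were lower and the median of all probes was 0.36. The share of lower probes was 75.3% with the fixed block, 73.1% with array weights, 72.8% without LIN5 and 46.8% within position 2. Within the numbers, the 0 calls became 10 with median scaling (7 higher), 1 with spike-in centring (UF_Ppr_AF_117777), and 3 each with normexp (UF_Ppr_AF_113084, UF_Ppr_AF_102654, UF_Ppr_AF_116100) and with a trended robust prior (UF_Ppr_AF_113084, UF_Ppr_AF_117777, UF_Ppr_AF_116100), and stayed at 0 when 1 number was left out. The 1584 at an unadjusted p below 0.05 became 631 with spike-in centring (30.9% lower) and 478 with no replicate block, ranged from 604 to 3416 without 1 number, and were 68.0%, 63.9% and 62.6% lower with median scaling, quantile normalization and the authors' table. Normexp within the numbers held 1981 at that p, 90.1% of them lower. The alternatives for the 46 random-block calls were all chosen after seeing the data. The count became 112 with median scaling, 172 with quantile normalization, 134 in the authors' table and 26 with normexp. It was 24 in the 8 arrays alone, 139 with slide fixed and 78 with probes well above background on all 8 arrays. With spike-in centring it was 0 (265 at an unadjusted p below 0.05), and without 1 array it ranged from 0 to 292. With position as a further block the count is not given, because LIN4 is then the sole LIN array set against DHT. The brightness index difference stayed between -0.35 and -0.10 in 12 alternatives, with -0.26 over the 3 pairs of the replicate block (exact sign permutation p = 0.500). With 3 pairs the sign permutation test could not give a p below 0.05, whatever their values. No named probe changed direction in the alternatives run for it, but UF_Ppr_AF_115040, for which slide and position were not among them, was 0.54 at position 2. The causes were not tested. The normexp fit used the median spot signal, and dim probes carry the widest errors (median SE 0.46 in the dimmest of the 5 brightness groups, 0.19 in the brightest).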
